A study of Homo sapiens with 9 samples.

Results

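DNA replication and S phase genes were followed in A549 cells, an established human lung adenocarcinoma line, 72 h after small interfering RNA (siRNA) was transfected. The genes were 48 chosen by name, with earlier results of these data known, and 46 of them had a row of their own on the array. The related lists below were chosen in the same way. Shares of the members and lists set against all tested genes are therefore descriptions, not tests of lists fixed beforehand. These 46 rows stand among 22411 genes with a row of a single gene symbol, of which 15964 were tested. PRIM2 and RRM1 occur only in rows that carry several symbols and were not read. The 9 arrays comprised 3 of cells labelled si-FAM210B, 3 of si-UQCRC2 cells and 3 of cells given a negative control siRNA, and every group had the same line, medium and time. The FAM210B product is a protein of mitochondrial membranes, that of UQCRC2 belongs to the core of respiratory complex III, and the comparisons ask how replication genes read once either RNA is targeted. Per the labels the replicates of a group were biological, with no word on separate cultures, so a p-value sets a difference against the array-to-array spread, which may be technical. As a model each group is 1 cell line given an siRNA transiently.

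Chromosomes are copied in steps. In G1 the origin recognition complex, CDC6 and CDT1 load the MCM helicase onto origins, which is called licensing. At S phase entry MCM10, CDC45 and the GINS complex turn the loaded MCM ring into an active helicase, polymerases with the PCNA clamp extend the strands, and nucleotide enzymes and histone chaperones keep pace. Many of these genes are transcribed in late G1 by E2F factors, so their RNA is widely used as a sign of cells entering S phase.

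The sequence around the start of transcription shows what many of the members share and the choice of members did not use. RefSeq promoters of assembly GRCh38.p14, reaching from 250 bases before to 50 bases after the annotated start, were at hand for 41 of the 48 members. They were searched on both strands for the E2F motifs TTTGGCGC, TTTCCCGC, TTTGCCGC and TTTCGCGC, for the box CCAAT, and for TTTGAA, a motif called CHR that is known from mitosis genes. An E2F motif was found in 21 of 41 member promoters (51.2%), against 561 of 11579 promoters of tested genes (4.84%) and 908 of 27305 promoters in all (3.33%). MCM4, MCM5, GINS4, POLD3, RPA2, RPA3 and CCNE2 had no entry. The windows below are those of the members with a match that fell with either targeting siRNA, each 30 bases long, with the motif in capitals. Position 0 is the annotated first base of the transcript, negative positions lie before it, and the position given is that of the first base of the match in the direction of the gene. Matches of E2F motifs can overlap, as in MCM2, whose window holds a second match of the same motif on the other strand.
CDC6, chr17:40287875-40287904, plus strand, position 7: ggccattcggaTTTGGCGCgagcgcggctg
MCM2, chr3:127598402-127598431, plus strand, position 2: cgtgaaccactTTTCGCGCgaaacctggtt
POLA2, chr11:65261898-65261927, plus strand, position -53: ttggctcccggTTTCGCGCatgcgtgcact
PCNA, chr20:5126663-5126692, plus strand, opposite to the gene, position -59: aacgcacgcctTTTCCCGCccctgacgctg
GINS2, chr16:85688967-85688996, plus strand, opposite to the gene, position -31: gcggccgccgtTTTCCCGCcacggcgagag
UHRF1, chr19:4909476-4909505, minus strand, opposite to the gene, position -14: gctctgattttTTTCCCGCgaaaactcggc
DNMT1, chr19:10194937-10194966, plus strand, opposite to the gene, position -2: gcgccccggctTTTCGCGCggaaaccgatg

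MCM6 is shown as the member with the most matches. Its promoter holds 2 copies of a 12-base run, in capitals, in which TTTGGCGC overlaps TTTCGCGC of the other strand, within a stretch of 90 bases that runs from 160 to 71 bases before the start.
MCM6, chr2:135876514-135876603, minus strand: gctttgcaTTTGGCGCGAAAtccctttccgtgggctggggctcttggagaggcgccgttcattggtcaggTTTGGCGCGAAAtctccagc

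The E2F share was highest among licensing genes, with 6 of 8 promoters, and stood at 3 of 5 for helicase activation, 4 of 8 for polymerases, 3 of 9 for the clamp and strand joining group, 1 of 4 for nucleotide supply, 2 of 4 for chromatin assembly and 2 of 3 for G1/S regulators. Lists of neighbouring processes held fewer matches, with 8 of 43 promoters (18.6%) of other replication genes and 3 of 30 (10%) of mitosis genes. The CHR motif ran the other way, in 1 of 41 member promoters (2.44%) against 21 of 30 promoters of mitosis genes (70%) and 1094 of 11579 promoters of tested genes (9.45%). CCAAT was in 23 of 41 member promoters (56.1%), against 4135 of 11579 (35.7%). A match is a description of the letters and not evidence that a factor binds, and these shares carry no test.

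**Figure D1:**
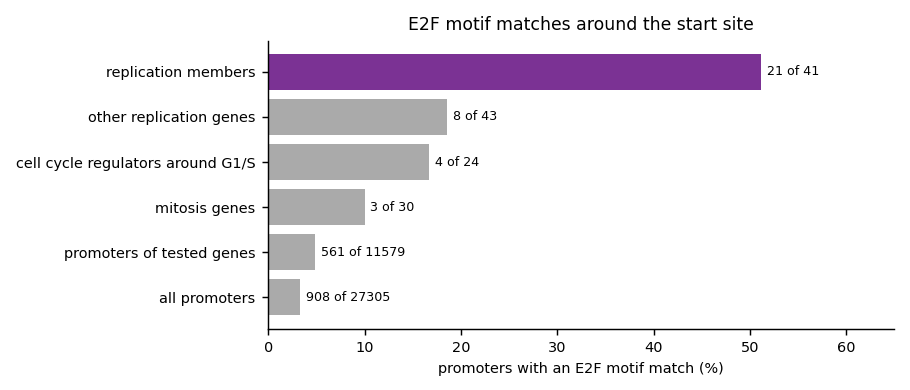
Share of promoters with an E2F motif match within the 300-base window, in percent, for the replication members, for 3 lists of related genes, for tested genes and for all promoters. The members' bar, at 51.2%, is the longest, and the bar of all promoters, at 3.33%, is the shortest.

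The targeted genes and the arrays were examined first. UQCRC2 read 8.34, 8.37 and 8.37 on the log2 scale in si-UQCRC2 cells, against 9.96, 9.84 and 9.70 in control cells, a fall by 1.47 (limma adjusted p = 0.000375). FAM210B read 6.48, 6.10 and 6.22 in cells labelled si-FAM210B, against 6.39, 6.46 and 6.48 in control cells, a difference of -0.17 (limma adjusted p = 0.239). Replicate 1 of the arrays labelled si-FAM210B thus lay at the level of the controls for its own target, and the groups overlapped. These cells and arrays are therefore named by their label throughout, and a direction below belongs to the label, not to a measured fall of FAM210B. Replicate 1 of that label and control replicate 3 also stood apart from their groups over all genes, and their deviations went together (r = 0.742 across all tested genes and 0.853 across the members, where genes are not independent). Each count below is therefore also given without these 2 arrays, a choice made after seeing the data. Within groups, members had a median SD of 0.141 (si-FAM210B), 0.0413 (si-UQCRC2) and 0.0922 (control), close to 0.130, 0.0379 and 0.0878 over all tested genes. KRT8, a keratin of simple epithelia, averaged over 11 in every group. Of 7 epithelial markers 1 fell in cells labelled si-FAM210B, the cadherin CDH1, by 1.09 (limma adjusted p = 1.82e-05), and in si-UQCRC2 cells KRT19 and EPCAM rose, by 0.73 and 0.24. Of the markers of leukocytes, endothelium and connective tissue, PTPRC, PECAM1 and DCN lay under the tested range at 2.41 to 3.02. A further 6, CD3E, CD14, VWF, CDH5, PDGFRB and COL1A1, were tested, with group means between 4.44 (CD3E, control) and 6.75 (COL1A1, si-FAM210B).

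In cells labelled si-FAM210B, 10 of the 46 members fell and none rose (21.7%), against 558 of 15964 tested genes that fell (3.50%) and 444 that rose (2.78%), 6.28% in either direction. A gene is said to fall or rise when its limma p, adjusted by Benjamini-Hochberg over all 15964 genes, was under 0.05. The 10 were ORC1, CDC6 and MCM5 of licensing, CDC45 of helicase activation, POLA2 of the polymerases, PCNA, RFC4 and RFC5 of the clamp group, and CHAF1A and CHAF1B of chromatin assembly. The median difference of the members was -0.22 on the log2 scale, against 0.03 for all tested genes, and 42 of 46 differences were negative, against 43.4% of all tested genes. On 28 members every si-FAM210B array lay below every control array, against 12.3% of tested genes, and on no member did all lie above. In a bulk sample, fewer cells in S phase and less of these RNAs per cell cannot be told apart. Without the 2 deviating arrays 28 members fell, including all 10, against 13.1% of tested genes. Leaving out si-FAM210B replicate 2 gave 16, leaving out replicate 3 of that group gave 3, and leaving out any one of the si-UQCRC2 arrays, which enter the fit for its estimate of spread, gave 2. The count was 0 in limma without control replicate 1 and 0 without control replicate 2, where 22 and 21 members had an unadjusted p under 0.05. A limma fit of only the arrays labelled si-FAM210B and the controls also called 0 members. There the adjusted p of the 10 ran from 0.0854 (ORC1) to 0.188 (CHAF1A). The counts with 1 array or 1 group left out are given without the share of all tested genes in the same fit. They show only how the calls moved.

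In si-UQCRC2 cells, 12 of the 46 members fell and none rose (26.1%), against 230 of 15964 tested genes that fell (1.44%) and 482 that rose (3.02%), 4.46% in either direction. The 12 were ORC1, MCM2 and MCM5 of licensing, MCM10, CDC45, GINS2 and GINS4 of helicase activation, RRM2 and TK1 of nucleotide supply, and CHAF1A, UHRF1 and DNMT1 of chromatin assembly and maintenance methylation. The members' median difference was -0.26, against -0.01 for all tested genes, and 43 of 46 were negative, against 55.7% of tested genes. Every si-UQCRC2 array lay below every control array on 37 members, against 14.9% of tested genes, and above on 1, CCNE1, against 14.2%. Without the 2 deviating arrays 35 members fell, including all 12, against 8.91% of tested genes. Leaving out si-FAM210B replicate 1 gave 28. Leaving out control replicate 1, 2 or 3 gave 5, 1 or 7, and leaving out si-UQCRC2 replicate 1, 2 or 3 gave 1, 2 or 1. These counts with 1 array left out are given without the share of all tested genes in the same fit. They show only how the calls moved. RRM2 passed the test with any one of the 9 arrays left out, but lost its call under median centring. Both comparisons use the same 3 control arrays, so the genes that fell in both are not independent observations.

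**Figure D2:**
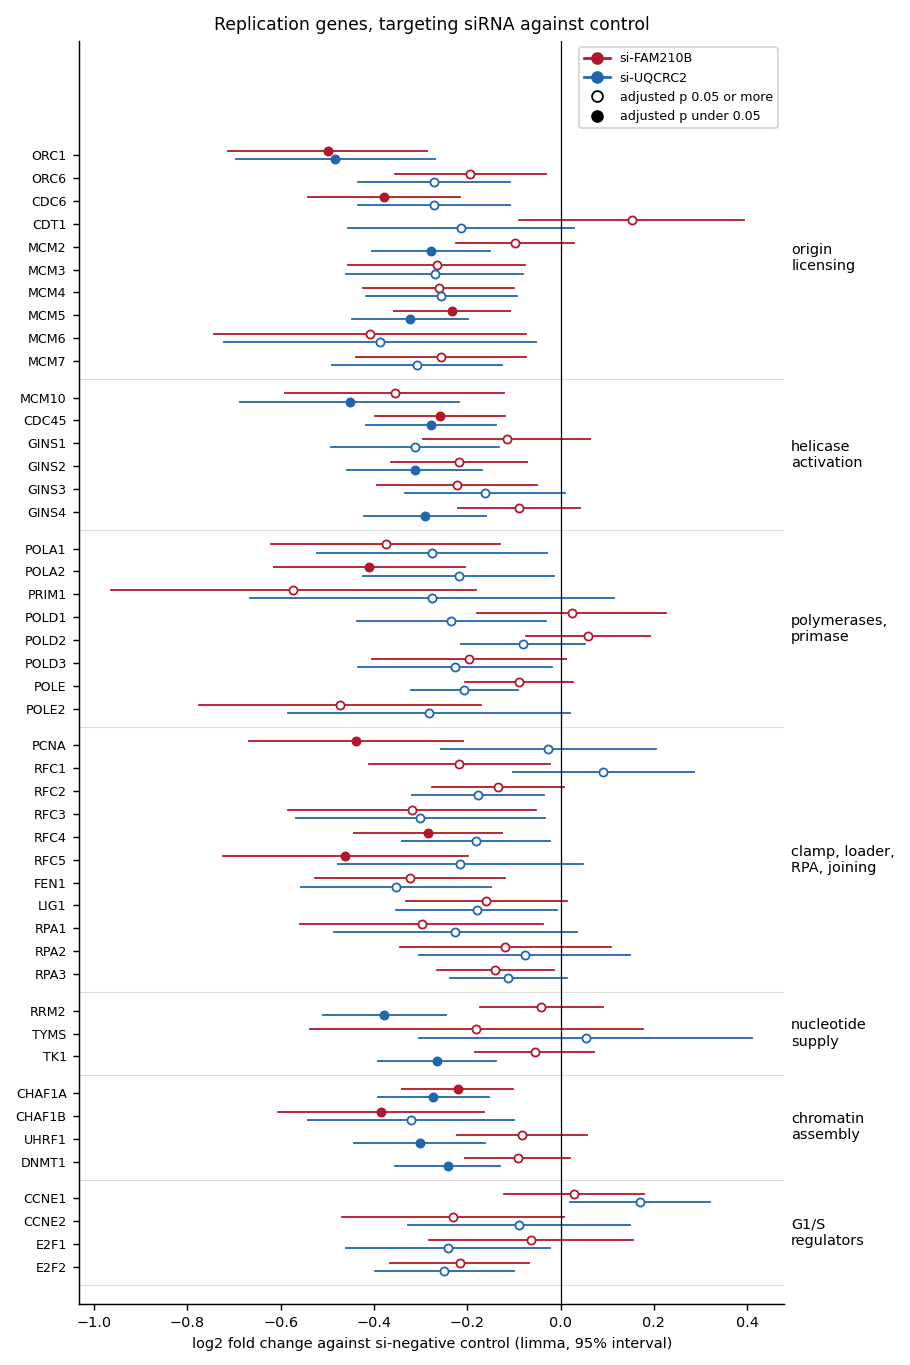
Log2 fold change of each of the 46 members against the si-negative control, with limma's 95% interval, for si-FAM210B (red, upper) and si-UQCRC2 (blue, lower), grouped by role. Filled points passed the adjusted threshold of 0.05: 10 for si-FAM210B and 12 for si-UQCRC2, all left of 0.

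Of the 10 licensing members, 3 fell in cells labelled si-FAM210B (median -0.26) and 3 in si-UQCRC2 cells (median -0.27). ORC1, the ATPase subunit of the origin recognition complex whose level rises and falls with the cycle, read 6.71, 7.04 and 6.99 in cells labelled si-FAM210B, 6.99, 6.93 and 6.88 in si-UQCRC2 cells and 7.51, 7.46 and 7.27 in control cells. All 6 arrays of the targeting siRNAs lay below all 3 control arrays. ORC1 fell by 0.50 ± 0.10 (limma SE, adjusted p = 0.0156) in cells labelled si-FAM210B and by 0.48 ± 0.10 (adjusted p = 0.0204) in si-UQCRC2 cells, the largest called fall of any member in each.

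CDC6, the loader that brings MCM to the origin complex, read 8.11, 8.20 and 8.20 in cells labelled si-FAM210B, 8.25, 8.25 and 8.33 in si-UQCRC2 cells and 8.69, 8.54 and 8.42 in control cells. The arrays labelled si-FAM210B were the lowest, the si-UQCRC2 arrays came next, and neither overlapped the controls. CDC6 fell by 0.38 ± 0.07 in cells labelled si-FAM210B (limma adjusted p = 0.0163), and its difference in si-UQCRC2 cells was -0.27 (limma adjusted p = 0.0737).

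MCM2 to MCM7 are the 6 subunits of the helicase ring. MCM5 read 8.79, 8.85 and 8.90 in cells labelled si-FAM210B, 8.77, 8.80 and 8.71 in si-UQCRC2 cells and 9.04, 9.12 and 9.09 in control cells. It fell by 0.23 ± 0.06 (limma adjusted p = 0.0397) in cells labelled si-FAM210B and by 0.32 ± 0.06 (limma adjusted p = 0.0109) in si-UQCRC2 cells, with no overlap with the controls in either. MCM2 read 7.29, 7.27 and 7.29 in cells labelled si-FAM210B, 7.15, 7.12 and 7.03 in si-UQCRC2 cells and 7.35, 7.35 and 7.45 in control cells. The 3 groups lay in 3 separate layers, si-UQCRC2 lowest. MCM2 fell by 0.28 ± 0.06 in si-UQCRC2 cells (limma adjusted p = 0.0235), and its difference in cells labelled si-FAM210B was -0.10 (limma adjusted p = 0.279).

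The other ring subunits MCM3, MCM4, MCM6 and MCM7 had differences of -0.26 to -0.41 in cells labelled si-FAM210B and of -0.26 to -0.39 in si-UQCRC2 cells, and none passed the test. In si-UQCRC2 cells none of the 4 overlapped the controls, and in cells labelled si-FAM210B MCM6 did. ORC6, another subunit of the origin complex, differed by -0.19 in cells labelled si-FAM210B and by -0.27 in si-UQCRC2 cells (limma adjusted p = 0.137 and 0.0725). CDT1, the partner of CDC6 in loading, stood apart from the other licensing genes: it read 7.67, 7.27 and 7.28 in cells labelled si-FAM210B, 7.06, 7.05 and 7.01 in si-UQCRC2 cells and 7.15, 7.22 and 7.39 in control cells. Its highest value was that of the deviating si-FAM210B array, and the si-UQCRC2 arrays lay below all others. Neither difference from control passed the test (0.15, limma adjusted p = 0.360, for si-FAM210B and -0.21, limma adjusted p = 0.411, for si-UQCRC2).

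Among the 6 helicase activation genes, 1 fell in cells labelled si-FAM210B (median -0.22) and 4 fell in si-UQCRC2 cells (median -0.30). CDC45, which joins MCM and GINS in the active helicase, read 7.05, 7.17 and 7.23 in cells labelled si-FAM210B, 7.15, 7.18 and 7.06 in si-UQCRC2 cells and 7.42, 7.38 and 7.43 in control cells. The arrays of the targeting siRNAs shared 1 range, below the narrow range of the controls. CDC45 fell by 0.26 ± 0.06 (limma adjusted p = 0.0405) in cells labelled si-FAM210B and by 0.28 ± 0.06 (limma adjusted p = 0.0361) in si-UQCRC2 cells.

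MCM10, a factor needed to fire the assembled helicase, read 7.93, 8.26 and 8.34 in cells labelled si-FAM210B, 8.13, 8.02 and 8.09 in si-UQCRC2 cells and 8.64, 8.55 and 8.41 in control cells. No array of a targeting siRNA reached the lowest control, and the arrays labelled si-FAM210B were more scattered than the others. MCM10 fell by 0.45 ± 0.11 in si-UQCRC2 cells (limma adjusted p = 0.0417), and its difference was -0.36 in cells labelled si-FAM210B (limma adjusted p = 0.0745).

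GINS1 to GINS4 form the GINS complex. GINS2 read 7.5, 7.71 and 7.60 in cells labelled si-FAM210B, 7.56, 7.51 and 7.45 in si-UQCRC2 cells and 7.83, 7.85 and 7.78 in control cells. It fell by 0.31 ± 0.07 in si-UQCRC2 cells (limma adjusted p = 0.0256), and its difference was -0.22 in cells labelled si-FAM210B (limma adjusted p = 0.0765), without overlap in either. GINS4 read 6.85, 6.97 and 6.99 in cells labelled si-FAM210B, 6.77, 6.70 and 6.74 in si-UQCRC2 cells and 7.07, 7.03 and 6.99 in control cells. Here the si-UQCRC2 arrays lay clearly below, while the arrays labelled si-FAM210B met the lowest control. GINS4 fell by 0.29 ± 0.06 in si-UQCRC2 cells (limma adjusted p = 0.0227), against a difference of -0.09 in cells labelled si-FAM210B (limma adjusted p = 0.324). GINS1 differed by -0.12 in cells labelled si-FAM210B and -0.31 in si-UQCRC2 cells, and GINS3 by -0.22 and -0.16 in the same order, and none of these passed.

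**Figure D3:**
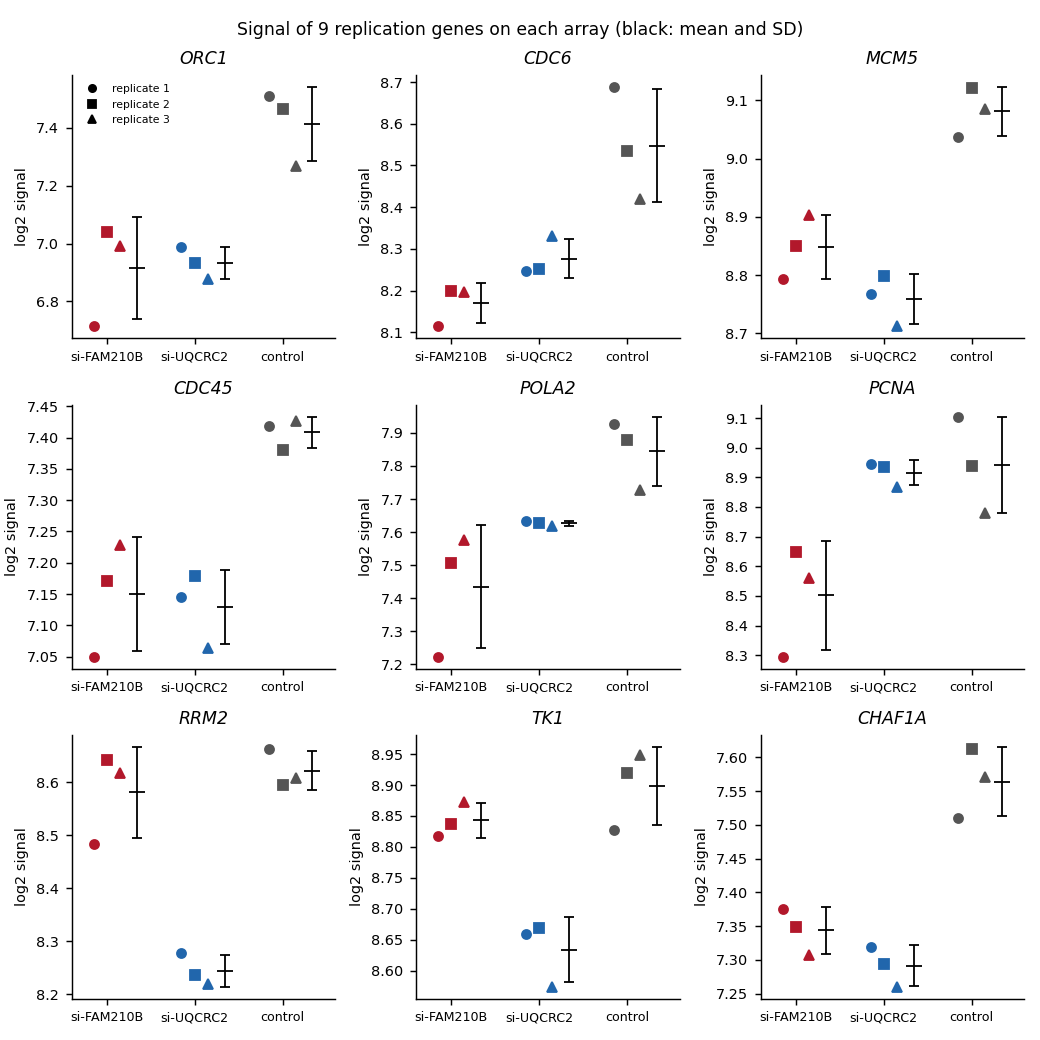
Log2 signal of 9 members on each array, with symbols for the replicate and black bars for the group mean and SD (n = 3 each). ORC1, CDC6, MCM5, CDC45, POLA2 and CHAF1A read lower than all controls on all 6 arrays of the targeting siRNAs. PCNA was below all controls on the arrays labelled si-FAM210B, and RRM2 and TK1 were lowest on the si-UQCRC2 arrays.

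Of 8 polymerase and primase genes, 1 fell in cells labelled si-FAM210B (median -0.29) and none in si-UQCRC2 cells (median -0.23). In si-UQCRC2 cells limma gave an unadjusted p under 0.05 for 5 of the 8, against 2416 of 15964 tested genes. Without the 2 deviating arrays POLA1, POLA2, PRIM1, POLD1, POLD3, POLE and POLE2 fell in si-UQCRC2 cells, against 8.91% of all tested genes. In cells labelled si-FAM210B that fit called POLA1, POLA2, PRIM1, POLD3 and POLE2 lower, against 13.1%. POLA2, the accessory subunit of the polymerase alpha and primase complex that starts each new strand, read 7.22, 7.51 and 7.58 in cells labelled si-FAM210B, 7.63, 7.63 and 7.62 in si-UQCRC2 cells and 7.93, 7.88 and 7.73 in control cells. The 3 groups did not overlap, with si-FAM210B lowest and its replicate 1 lowest of all. POLA2 fell by 0.41 ± 0.09 in cells labelled si-FAM210B (limma adjusted p = 0.0305), and its difference was -0.22 in si-UQCRC2 cells (limma adjusted p = 0.285).

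POLE2, an accessory subunit of the leading-strand polymerase epsilon, read 6.28, 6.76 and 6.60 in cells labelled si-FAM210B, 6.72, 6.71 and 6.78 in si-UQCRC2 cells and 7.23, 7.07 and 6.76 in control cells. Control replicate 3 reached into the range of both targeting siRNAs. The differences were -0.47 in cells labelled si-FAM210B (limma adjusted p = 0.0691) and -0.28 in si-UQCRC2 cells (limma adjusted p = 0.375). POLE, the catalytic subunit, read 7.88, 7.97 and 7.96 in cells labelled si-FAM210B, 7.83, 7.83 and 7.79 in si-UQCRC2 cells and 8.01, 8.04 and 8.03 in control cells. The groups were ordered without overlap, though the differences were only -0.09 in cells labelled si-FAM210B (limma adjusted p = 0.279) and -0.21 in si-UQCRC2 cells (limma adjusted p = 0.0554).

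PRIM1, the catalytic primase, had the most negative difference of all members in cells labelled si-FAM210B, -0.57, and did not pass the test (limma adjusted p = 0.0815), with 7.57 on replicate 1 against 8.25 and 8.23 on the other arrays labelled si-FAM210B. POLA1 differed by -0.38 in cells labelled si-FAM210B and -0.28 in si-UQCRC2 cells. The delta polymerase subunits differed from these in cells labelled si-FAM210B, where POLD1 stood at 0.02, POLD2 at 0.06 and POLD3 at -0.20. POLD1, the catalytic subunit of the lagging-strand polymerase, read 7.62, 7.33 and 7.34 in cells labelled si-FAM210B, 7.18, 7.17 and 7.18 in si-UQCRC2 cells and 7.33, 7.33 and 7.56 in control cells. Both deviating arrays read high for POLD1, and the si-UQCRC2 arrays were below all others (difference -0.23, limma adjusted p = 0.240).

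The clamp and strand joining group held 11 members, of which 3 fell in cells labelled si-FAM210B (median -0.28) and none in si-UQCRC2 cells (median -0.18). In si-UQCRC2 cells limma gave an unadjusted p under 0.05 for 5 of the 11, against 2416 of 15964 tested genes. Without the 2 deviating arrays RFC2, RFC3, RFC4, RFC5, FEN1 and RPA1 fell in si-UQCRC2 cells, against 8.91% of all tested genes. In cells labelled si-FAM210B that fit added RFC1, RFC3, FEN1, LIG1, RPA1 and RPA3, against 13.1%. PCNA, the sliding clamp that holds polymerases on DNA, read 8.30, 8.65 and 8.56 in cells labelled si-FAM210B, 8.94, 8.93 and 8.87 in si-UQCRC2 cells and 9.10, 8.94 and 8.78 in control cells. Only the arrays labelled si-FAM210B lay below the controls, and the si-UQCRC2 arrays lay inside the control range. PCNA fell by 0.44 ± 0.10 in cells labelled si-FAM210B (limma adjusted p = 0.0366), to 73.8% of control. In si-UQCRC2 cells the difference was -0.03 with a 95% interval of -0.26 to 0.20.

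RFC1 to RFC5 load the clamp. RFC4 read 7.03, 7.21 and 7.13 in cells labelled si-FAM210B, 7.26, 7.24 and 7.18 in si-UQCRC2 cells and 7.49, 7.45 and 7.29 in control cells. RFC5 read 7.24, 7.69 and 7.71 in cells labelled si-FAM210B, 7.82, 7.77 and 7.79 in si-UQCRC2 cells and 8.08, 8.07 and 7.87 in control cells. Both lay below all controls with both targeting siRNAs, and RFC5 was lowest on si-FAM210B replicate 1. In cells labelled si-FAM210B RFC4 fell by 0.28 ± 0.07 (limma adjusted p = 0.0443) and RFC5 by 0.46 ± 0.12 (limma adjusted p = 0.0482). Their differences in si-UQCRC2 cells were -0.18 and -0.21 and did not pass. RFC1, the large subunit, differed by -0.22 in cells labelled si-FAM210B and by 0.09 in si-UQCRC2 cells, RFC3 by -0.32 and -0.30, and none passed.

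FEN1, the nuclease that trims the ends of lagging-strand fragments, read 7.80, 7.99 and 8.14 in cells labelled si-FAM210B, 7.96, 7.97 and 7.91 in si-UQCRC2 cells and 8.39, 8.35 and 8.16 in control cells. Neither targeting siRNA overlapped the controls, with differences of -0.32 (limma adjusted p = 0.0664) in cells labelled si-FAM210B and -0.35 (limma adjusted p = 0.0641) in si-UQCRC2 cells. RFC2 read 7.56, 7.71 and 7.70 in cells labelled si-FAM210B, 7.61, 7.68 and 7.55 in si-UQCRC2 cells and 7.82, 7.81 and 7.74 in control cells. It too was below all controls, by small amounts (-0.13 in cells labelled si-FAM210B and -0.18 in si-UQCRC2 cells, neither called). LIG1, the ligase that seals the fragments, and RPA1, RPA2 and RPA3, which coat single-stranded DNA, had differences of -0.12 to -0.30 in cells labelled si-FAM210B and of -0.08 to -0.23 in si-UQCRC2 cells, none of which passed.

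Of the 3 members of nucleotide supply, none was called against control in cells labelled si-FAM210B (median -0.06, no unadjusted limma p under 0.05) and 2 were called in si-UQCRC2 cells (median -0.26). RRM2, the S phase subunit of ribonucleotide reductase, which makes deoxynucleotides, read 8.48, 8.64 and 8.62 in cells labelled si-FAM210B, 8.28, 8.24 and 8.22 in si-UQCRC2 cells and 8.66, 8.60 and 8.61 in control cells. The si-UQCRC2 arrays formed a tight group below all others. RRM2 fell by 0.38 ± 0.06 in si-UQCRC2 cells (limma adjusted p = 0.00637), and in cells labelled si-FAM210B its difference was -0.04, with a 95% interval of -0.17 to 0.09. These values are of the row with the highest mean, as a further row was assigned to RRM2 when symbols were updated. With its rows averaged, the call in si-UQCRC2 cells held. The difference between the targeting siRNAs then shrank from 0.34 to 0.16 (limma adjusted p = 0.0674).

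TK1, the S phase thymidine kinase that recovers thymidine, read 8.82, 8.84 and 8.87 in cells labelled si-FAM210B, 8.66, 8.67 and 8.57 in si-UQCRC2 cells and 8.83, 8.92 and 8.95 in control cells. Again the si-UQCRC2 arrays stood alone at the bottom. TK1 fell by 0.26 ± 0.06 in si-UQCRC2 cells (limma adjusted p = 0.0298), against a difference of -0.06 in cells labelled si-FAM210B (limma adjusted p = 0.508). TYMS, which makes thymidylate anew, read 8.67, 9.35 and 9.33 in cells labelled si-FAM210B, 9.34, 9.32 and 9.40 in si-UQCRC2 cells and 9.41, 9.35 and 9.14 in control cells. Apart from the low value of si-FAM210B replicate 1, the groups overlapped, and the differences were -0.18 in cells labelled si-FAM210B (limma adjusted p = 0.451) and 0.05 in si-UQCRC2 cells (limma adjusted p = 0.973).

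Of the 4 chromatin genes, 2 fell in cells labelled si-FAM210B (median -0.16) and 3 in si-UQCRC2 cells (median -0.29). CHAF1A, the large subunit of the histone chaperone that places new nucleosomes behind the fork, read 7.38, 7.35 and 7.31 in cells labelled si-FAM210B, 7.32, 7.29 and 7.26 in si-UQCRC2 cells and 7.51, 7.61 and 7.57 in control cells. Its arrays of both targeting siRNAs lay below its controls, and it fell by 0.22 ± 0.05 (limma adjusted p = 0.0406) in cells labelled si-FAM210B and by 0.27 ± 0.05 (limma adjusted p = 0.0199) in si-UQCRC2 cells. CHAF1B, the middle subunit, read 7.62, 8.01 and 8.0 in cells labelled si-FAM210B, 7.93, 7.93 and 7.96 in si-UQCRC2 cells and 8.34, 8.25 and 8.19 in control cells. It also lay below all controls in both, and fell by 0.38 ± 0.10 in cells labelled si-FAM210B (limma adjusted p = 0.0491), while its difference in si-UQCRC2 cells was -0.32 (limma adjusted p = 0.120).

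UHRF1 recognises hemimethylated DNA behind the fork and brings in DNMT1, which copies the methyl marks. UHRF1 read 8.04, 8.09 and 8.11 in cells labelled si-FAM210B, 7.92, 7.83 and 7.83 in si-UQCRC2 cells and 8.06, 8.25 and 8.17 in control cells. DNMT1 read 9.24, 9.22 and 9.19 in cells labelled si-FAM210B, 9.09, 9.08 and 9.04 in si-UQCRC2 cells and 9.29, 9.29 and 9.35 in control cells. For this pair the si-UQCRC2 arrays were lowest and the arrays labelled si-FAM210B lay near the lowest control. In si-UQCRC2 cells UHRF1 fell by 0.30 ± 0.06 (limma adjusted p = 0.0256) and DNMT1 by 0.24 ± 0.05 (limma adjusted p = 0.0257), and in cells labelled si-FAM210B their differences were -0.08 and -0.09, not called.

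None of the 4 regulators at the G1/S border was called in either comparison by limma. In cells labelled si-FAM210B 1 had an unadjusted p under 0.05, against 4161 of 15964 tested genes. In si-UQCRC2 cells 3 had, E2F1 and E2F2 lower and CCNE1 higher, against 2416 of 15964. Without the 2 deviating arrays E2F2 fell in both comparisons and CCNE2 in cells labelled si-FAM210B. E2F2, an activating E2F, read 6.02, 5.97 and 6.03 in cells labelled si-FAM210B, 5.99, 5.93 and 6.01 in si-UQCRC2 cells and 6.16, 6.15 and 6.36 in control cells, below the controls on all 6 arrays of the targeting siRNAs (differences -0.22 for si-FAM210B and -0.25 for si-UQCRC2). CCNE2, cyclin E2, read 4.66, 4.90 and 4.79 in cells labelled si-FAM210B, 4.94, 4.94 and 4.90 in si-UQCRC2 cells and 5.24, 5.03 and 4.78 in control cells, with overlap in both comparisons. CCNE1, cyclin E1, which drives the kinase CDK2 at S phase entry, read 7.88, 8.07 and 7.96 in cells labelled si-FAM210B, 8.15, 8.16 and 8.02 in si-UQCRC2 cells and 7.99, 7.95 and 7.90 in control cells. It was the 1 member that read above all controls in si-UQCRC2 cells (0.17, limma adjusted p = 0.249). E2F1 differed by -0.06 in cells labelled si-FAM210B and -0.24 in si-UQCRC2 cells, not called.

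Averaged over the 46 members, the arrays labelled si-FAM210B lay at -0.34, -0.15 and -0.17 and the si-UQCRC2 arrays at -0.21, -0.22 and -0.26 relative to the control mean, against 0.03, 0.02 and -0.05 for the control arrays. All 6 arrays of the targeting siRNAs lay below all 3 controls, with si-FAM210B replicate 1 lowest and control replicate 3 the lowest control. The 6 tested markers of leukocytes, endothelium and connective tissue, of 11 listed, were highest within their groups on the same 2 arrays, with means of 0.31, 0.02 and 0.15 on the arrays labelled si-FAM210B, 0.00, 0.04 and 0.02 on the si-UQCRC2 arrays and -0.05, -0.05 and 0.10 on the controls relative to the control mean. None of these 6 markers was called against control, and COL1A1 was higher by 0.40 in cells labelled si-FAM210B than in si-UQCRC2 cells (limma adjusted p = 0.0205). The 7 tested markers of alveolar type 2 cells, of 8 listed, were highest on the same 2 arrays within those groups. Their means were 0.31, 0.05 and 0.14 on the arrays labelled si-FAM210B. On the si-UQCRC2 arrays they were 0.00, 0.03 and 0.02, and on the controls -0.05, -0.05 and 0.10. Of these 7, ABCA3 alone was called against control, higher by 0.40 in cells labelled si-FAM210B (limma adjusted p = 0.00653). The part of either list in the result was not tested. Without the 2 arrays the members' medians were -0.19 in cells labelled si-FAM210B and -0.28 in si-UQCRC2 cells.

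**Figure D4:**
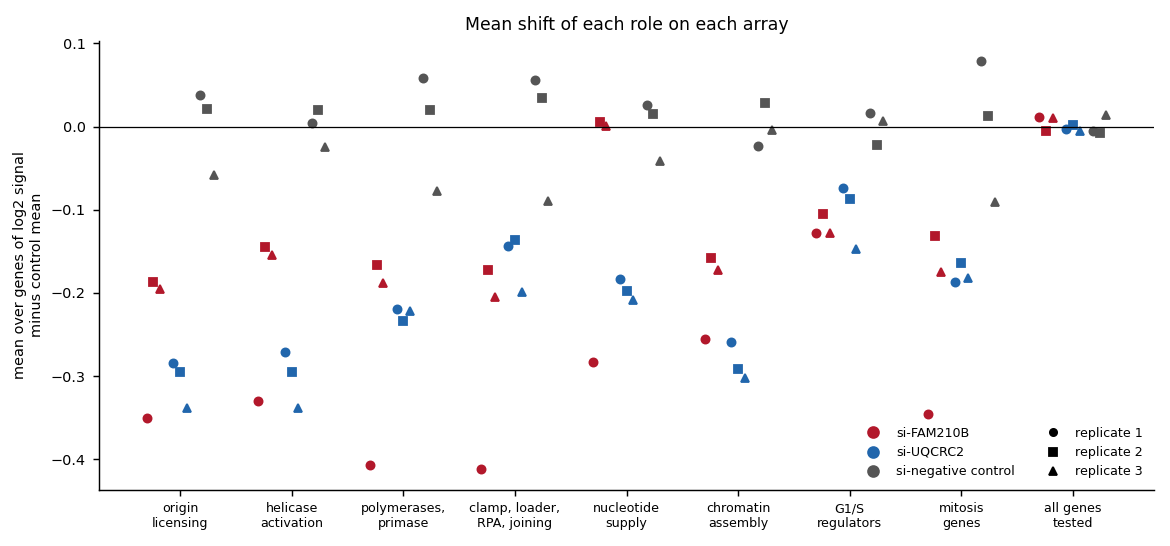
Mean over the genes of each role of log2 signal minus the control mean, for each array, with mitosis genes and all tested genes for comparison. Apart from nucleotide supply, where 2 arrays labelled si-FAM210B sit at the control level, each role of the members is lower on the 6 arrays of the targeting siRNAs than on the 3 controls, and si-FAM210B replicate 1 is the lowest point for licensing, polymerases, the clamp group and nucleotide supply.

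The direct comparison of the targeting siRNAs called 3 members, RRM2 and TK1 higher and PCNA lower in cells labelled si-FAM210B than in si-UQCRC2 cells. The background was 3.28% of tested genes higher and 6.50% lower, 9.78% in all, so 2 and 1 of 46 (4.35% and 2.17%) are shares near or below it. On 11 members the arrays labelled si-FAM210B lay wholly above the si-UQCRC2 arrays and on 5 wholly below, against 22.1% and 19.7% of tested genes. RRM2 differed by 0.34 ± 0.06 (limma adjusted p = 0.00789), TK1 by 0.21 ± 0.06 (limma adjusted p = 0.0466) and PCNA by -0.41 ± 0.10 (limma adjusted p = 0.0346), with si-FAM210B as the first term. None of the 3 overlapped between the targeting siRNAs. CDT1 had the most positive difference of all members, 0.37, with no overlap, and did not pass (limma adjusted p = 0.0613). The members' median was 0.02, against 0.05 for all tested genes. Without the 2 deviating arrays 15 members were called, 13 higher and 2 lower, against 11.0% and 13.0% of tested genes. The 2 lower were PCNA and RFC1, and the 13 included CDT1, MCM2, MCM10, GINS1, GINS4, UHRF1 and DNMT1. Leaving out si-FAM210B replicate 1, 2 or 3 gave 6, 5 or 1. Leaving out control replicate 2 gave 1, as did leaving out si-UQCRC2 replicate 1 or 2, and leaving out si-UQCRC2 replicate 3 gave 0 in limma, with 9 members at an unadjusted p under 0.05. The counts with 1 array left out are given without the share of all tested genes in the same fit and show only how the calls moved. RRM2 passed in 8 of the 9 fits that leave out 1 array, PCNA in 4 and TK1 in 3.

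**Figure D5:**
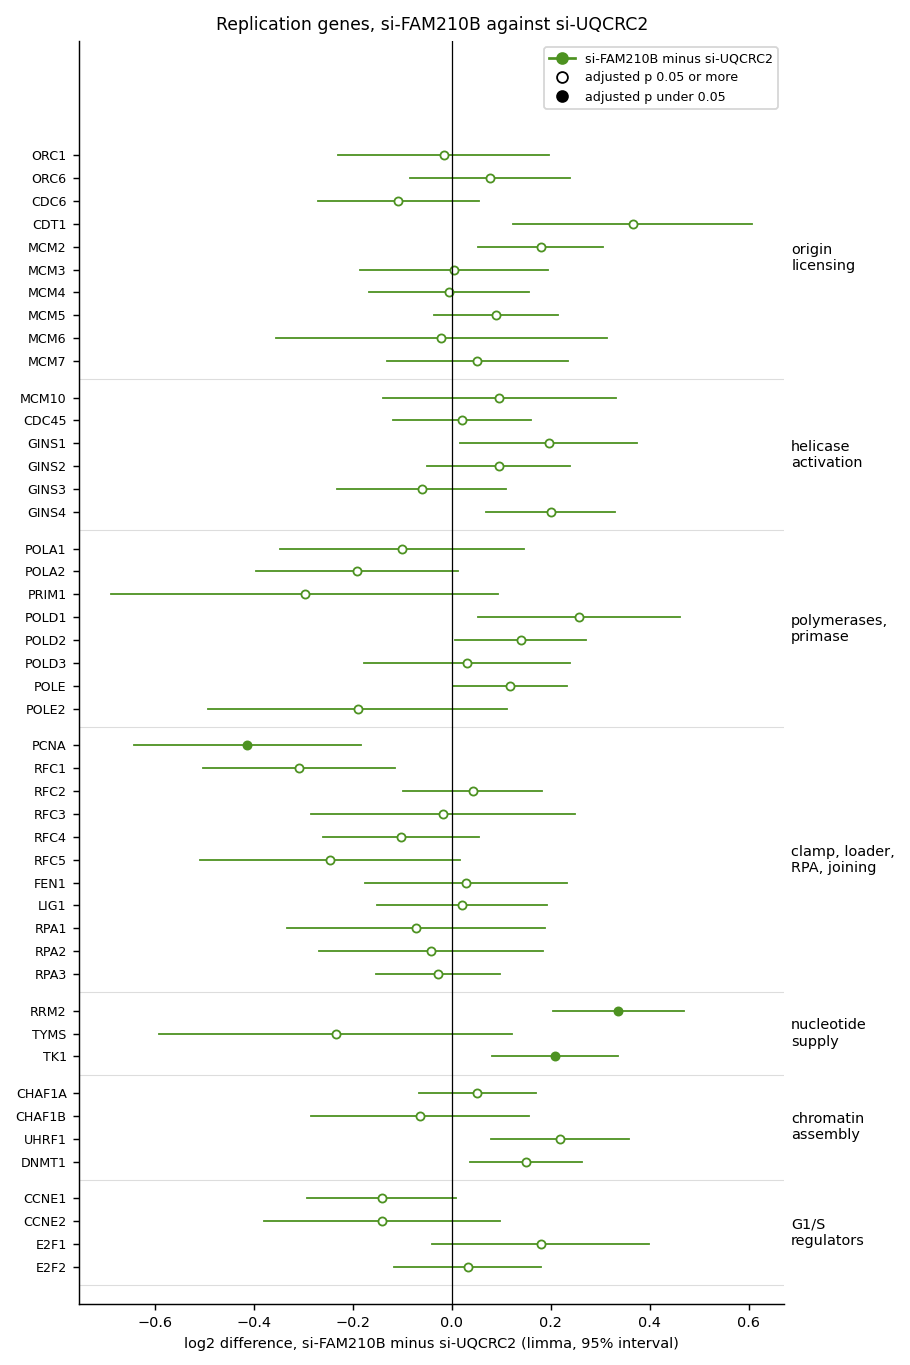
Log2 difference of each member, si-FAM210B minus si-UQCRC2, with limma's 95% interval, grouped by role. RRM2 and TK1 (filled, right of 0) and PCNA (filled, left of 0) passed the adjusted threshold of 0.05, and the other 43 did not.

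The members were also set out by whether their promoter held an E2F motif, with no test between the 2 sets. Of the 21 members with a match, 3 fell in cells labelled si-FAM210B (median -0.22) and 4 in si-UQCRC2 cells (median -0.27). Of the 18 measured members whose promoter held none of the 4 motifs, 6 fell in cells labelled si-FAM210B (median -0.24) and 6 in si-UQCRC2 cells (median -0.27). ORC1, RRM2 and TK1 are among the members without a match in the window used, and MCM6, with the double run printed above, differed by -0.41 in cells labelled si-FAM210B (limma adjusted p = 0.130) and -0.39 in si-UQCRC2 cells (limma adjusted p = 0.236).

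Further replication genes gave more calls in cells labelled si-FAM210B than in si-UQCRC2 cells, and the difference between the 2 counts was not tested. Of 50 tested genes on a list of further replication factors, 9 fell and none rose in cells labelled si-FAM210B (18%, median -0.26), against the 3.50% of all tested genes. In si-UQCRC2 cells 3 fell and none rose (6.0%, median -0.10), against 1.44%. TICRR, which helps load CDC45, read 7.89, 8.05 and 8.05 in cells labelled si-FAM210B, 7.86, 7.84 and 7.88 in si-UQCRC2 cells and 8.28, 8.31 and 8.22 in control cells. It fell in both, by 0.27 in cells labelled si-FAM210B (limma adjusted p = 0.0329) and by 0.41 in si-UQCRC2 cells (limma adjusted p = 0.00510), as did TIMELESS, a fork protection factor, by 0.31 and 0.37. In cells labelled si-FAM210B TOP1, the topoisomerase that relaxes DNA ahead of the fork, fell by 0.33, the MCM relative MCM8 by 0.49, the nuclease DNA2 by 0.59, the replication kinase CDC7 by 0.42 and SHMT1, a folate enzyme of thymidylate synthesis, by 0.24. The third call in si-UQCRC2 cells was CHTF8, part of an alternative clamp loader, which fell by 0.23. Without the 2 deviating arrays 28 of these genes fell and none rose in cells labelled si-FAM210B, against 13.1% of all tested genes lower and 11.2% higher, and 19 fell and 3 rose in si-UQCRC2 cells, against 8.91% and 8.23%.

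Between the targeting siRNAs 7 of these 50 genes were called, 2 higher and 5 lower in cells labelled si-FAM210B. These 4.0% and 10% are near the 3.28% and 6.50% of all tested genes, so the values that follow are of single genes. RRM2B, the ribonucleotide reductase subunit that p53 induces and that can stand in for RRM2, read 6.77, 7.28 and 7.25 in cells labelled si-FAM210B, 7.80, 7.81 and 7.92 in si-UQCRC2 cells and 7.60, 7.49 and 7.25 in control cells. The si-UQCRC2 arrays were above all others, whereas for RRM2 they were lowest. RRM2B was lower in cells labelled si-FAM210B than in si-UQCRC2 cells, by -0.74 ± 0.14 (limma adjusted p = 0.00943), and neither difference from control passed (-0.34 for si-FAM210B and 0.40 for si-UQCRC2). TOP1 differed by -0.46 and MCM8 by -0.46 between the targeting siRNAs, and CTPS1, which makes cytidine triphosphate, by -0.40. The 2 higher in cells labelled si-FAM210B were DTYMK, by 0.24 (limma adjusted p = 0.0449), and CHTF8, by 0.20 (limma adjusted p = 0.0441).

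Among 30 tested regulators of the cell cycle around G1/S, 7 fell and none rose in cells labelled si-FAM210B (23.3%, median -0.20), against 3.50% of all tested genes that fell. In si-UQCRC2 cells 2 fell and none rose (6.67%, median -0.11), against 1.44%. CDKN1A was higher there by 0.35, just outside the threshold (limma adjusted p = 0.05001). Every si-UQCRC2 array lay above every control array on 3 of the 30, CDKN1A among them, and below on 16. Over all tested genes these shares were 14.2% and 14.9%. The E2F family member E2F8, a repressor that E2F activators switch on, fell in both, by 0.42 in cells labelled si-FAM210B (limma adjusted p = 0.0135) and by 0.63 in si-UQCRC2 cells (limma adjusted p = 0.00174). CCND3, a D cyclin, fell by 0.44 in cells labelled si-FAM210B, SKP2, which marks cell cycle inhibitors for destruction, by 0.51, its partner CKS1B by 0.39, and the repressor E2F7 by 0.32. MYBL2, a factor that carries transcription on into mitosis genes, read 9.32, 9.39 and 9.44 in cells labelled si-FAM210B, 8.92, 8.98 and 8.88 in si-UQCRC2 cells and 9.37, 9.36 and 9.42 in control cells. Only the si-UQCRC2 arrays were low: MYBL2 fell by 0.46 ± 0.06 in si-UQCRC2 cells (limma adjusted p = 0.00164), its difference was 0.00 in cells labelled si-FAM210B, and the targeting siRNAs differed by 0.46 ± 0.06 (limma adjusted p = 0.00146). Between the targeting siRNAs 7 of the 30 regulators were called, 2 higher and 5 lower in cells labelled si-FAM210B (6.67% and 16.7%). Of all tested genes 3.28% were higher and 6.50% lower. The 2 higher were MYBL2 and MYC (0.23), and the lower included RBL2 (-0.51), E2F5 (-0.43), CDK6 (-0.32) and CCND3 (-0.24). Among 34 tested mitosis genes 4 fell in cells labelled si-FAM210B (11.8%, median -0.20, against 3.50% of all tested genes) and 7 in si-UQCRC2 cells (20.6%, median -0.16, against 1.44%). None rose, and AURKA, NUSAP1 and PTTG1 fell in both. Without the 2 deviating arrays 16 regulators fell and 1 rose in cells labelled si-FAM210B and 14 fell and 2 rose in si-UQCRC2 cells. Of the mitosis genes 16 fell in cells labelled si-FAM210B and 23 in si-UQCRC2 cells, and none rose. In that fit 13.1% of all tested genes were lower and 11.2% higher in cells labelled si-FAM210B, and 8.91% and 8.23% in si-UQCRC2 cells.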

How the data were processed

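The deposited table holds log2 signal values of Affymetrix whole-transcript arrays, which the authors made with RMA per the submitters' processing notes (no version given). RMA subtracts background, gives every array the same distribution of probe signals and combines probes into 1 value per transcript cluster, so it removes shifts common to a whole array and can compress differences of weak transcripts. The 67528 rows were named from the platform annotation, with symbols updated to RefSeq records of GRCh38.p14. Where a gene had several rows the one with the highest mean was kept, and a mean of at least 4.25, which is the median over rows, was required for testing. The 9 arrays entered 1 limma fit (3.58.1, R 4.3.3, lmFit and eBayes), with Benjamini-Hochberg adjustment over 15964 genes and an exact permutation test for single genes, which cannot go below 0.1 for 3 against 3. Arrays have no counting depth, and their number limits the precision. The script was tested on simulated data. The members, their roles and the lists were chosen with earlier results of these data known. In each role, values are given on every array for the 2 members with the smallest p in each comparison with control and for each called member, and from each related list up to 6 called genes per comparison are named. Alternatives covered the filter, quantile normalization, median centring, array weights, limma's trend and robust options, the groups in the fit, the replicate block, averaging a gene's rows, and leaving out arrays.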

Additional observations from a re-analysis of the deposited data

Results flagged for a closer look

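For 3 members the 2 groups of targeting siRNA differed by a test of the difference itself, si-FAM210B minus si-UQCRC2 in limma. In the arrays labelled si-FAM210B the targeted RNA itself did not pass the test against control (-0.17, adjusted p = 0.239). RRM2 differed by 0.34 (adjusted p = 0.00789), as 3 of 3 arrays labelled si-FAM210B lay above 3 of 3 si-UQCRC2 arrays. TK1 differed by 0.21 (adjusted p = 0.0466) and PCNA by -0.41 (adjusted p = 0.0346), also without overlap of the 3 arrays each. Over the fits that leave out 1 array the adjusted p ranged from 0.00155 to 0.0516 for RRM2, from 0.0369 to 0.196 for TK1 and from 0.0195 to 0.123 for PCNA. Under median centring all 3 calls were lost (adjusted p = 0.103 for RRM2, 0.245 for TK1 and 0.0667 for PCNA). With the replicate block TK1 (0.111) and PCNA (0.0740) lost theirs, and with a gene's rows averaged RRM2 did (difference 0.16, adjusted p = 0.0674).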

How the results depend on the processing

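Counts of called members depended on the processing, while directions did so for 1 called difference: MCM6, si-FAM210B minus si-UQCRC2, turned to 0.17 (limma adjusted p = 0.0300) without the 2 deviating arrays. Counts are given for si-FAM210B against control, si-UQCRC2 against control and si-FAM210B against si-UQCRC2, in this order, where they moved by over 1.5 times. For the members (10, 12 and 3 called) median centring gave 4, 2 and 0, array weights 30, 39 and 19, and the fit without the 2 deviating arrays 28, 35 and 15. A fit of only the groups compared gave 0 and 25 in the comparisons with control, no filter gave 4 in that of si-FAM210B, and a stricter filter and quantile normalization gave 5 and 8 between the targeting siRNAs. For further replication genes (9, 3 and 7) median centring gave 3, 0 and 3, array weights 31, 30 and 24, only the groups compared 0, 11 and 4, no filter 4 between the targeting siRNAs, and leaving out the 2 arrays 28, 22 and 18. For cell cycle regulators (7, 2 and 7) median centring gave 2 and 4 against control, array weights 19, 18 and 15, only the groups compared 1, 9 and 4, and leaving out the 2 arrays 17, 16 and 13. For mitosis genes (4, 7 and 2) quantile normalization gave 2 for si-FAM210B against control and 5 between the targeting siRNAs, median centring 3 for si-UQCRC2 against control, no filter 1 between the targeting siRNAs, array weights 18, 28 and 17, only the groups compared 1, 11 and 0, and leaving out the 2 arrays 16, 23 and 13. Array weights used limma's gene-by-gene method because its default did not converge, a choice made after seeing this. Apart from the fit without the 2 deviating arrays, the counts in this section are given without the share of all tested genes in the same fit. They describe how calls moved with the processing and are not results about the lists. The causes were not tested.

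Deviations of si-FAM210B and control arrays of the same number correlated at -0.58, 0.51 and -0.39 across genes. The first and last of these values each involve a deviating array, and the deviating arrays carry different numbers. The values therefore cannot settle whether replicate numbers pair the arrays. With the replicate number as a block the counts were 1, 2 and 1 for members, 2, 1 and 2 for further replication genes, 2 (si-FAM210B against control) and 3 (between the targeting siRNAs) for regulators, and 0 for mitosis genes for si-UQCRC2 against control and between the targeting siRNAs. With 1 array left out they ranged from 0 to 16, 1 to 28 and 0 to 6 for members, 0 to 20, 1 to 13 and 1 to 13 for further replication genes, 1 to 9, 2 to 11 and 1 to 9 for regulators, and 1 to 13, 0 to 12 and 0 to 5 for mitosis genes. RRM2 lost its call between the targeting siRNAs when the rows of a gene were averaged. Median differences of the members kept their sign against control under quantile normalization (-0.18 and -0.24) and median centring (-0.29 and -0.25), and between the targeting siRNAs the median was 0.06 and -0.06. Where an alternative gave 0 calls for the members or for 1 of the 3 related lists, limma gave from 5 to 24 of their genes an unadjusted p under 0.05.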
